A study of Mus musculus with 37 samples.

Results

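The 9 genes described here encode cystatins and cathepsins of hippocampal astrocytes: the inhibitors Cst3 (cystatin C) and Cstb (cystatin B), and the lysosomal proteases Ctsb, Ctsd, Ctsl, Ctsz, Ctsh, Ctsa and Ctsf. They were taken by symbol from the 21975 gene identifiers of the count and TPM (transcript abundance scaled for length and library size) tables. The astrocytes came from adult male wild-type mice (the labels read WT CD31, the study's methods name the outbred CD1 strain) 4 months after a unilateral controlled cortical impact (CCI) or a sham operation. They were isolated with beads against ACSA-2, an astrocyte surface antigen, and each library is the astrocytes of 1 hippocampus of 1 mouse. PTE+ mice developed post-traumatic epilepsy in EEG and video recording, PTE- mice had the same injury without it, and sham mice had surgery and electrodes but no impact. The contralateral hippocampus gave 5 PTE+, 10 PTE- and 5 sham libraries, and the ipsilateral hippocampus, on the impact side, 4, 8 and 5. All 17 mice with an ipsilateral library also had a contralateral one. Severe impact removes much of the ipsilateral hippocampus, so that side represents the tissue that remained.

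Cystatins are small proteins that block the active site of papain-like cysteine proteases. Cystatin C is secreted and is abundant in astrocytes and cerebrospinal fluid, whereas cystatin B stays inside the cell, and loss of human CSTB causes progressive myoclonus epilepsy of the Unverricht-Lundborg type. Cathepsins degrade proteins in lysosomes: cathepsins B, L, Z, H and F are cysteine proteases and fall within the reach of cystatins, cathepsin D is an aspartic protease, and cathepsin A is a serine carboxypeptidase that also shields lysosomal beta-galactosidase and neuraminidase. Ctsd and Ctsa are therefore not cystatin targets, and only 5 of the 7 cathepsins fit the description of proteases that cystatins inhibit.

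Cst3 was by far the most abundant of the 9 genes. On the TPM scale, which allows for transcript length and is used here wherever levels of different genes are compared, its level over the 37 libraries was 24686 ± 8374 (mean ± SD), the 2nd highest of all genes. The proteases followed at much lower levels. Ctsd stood at 915 ± 236 TPM and Ctsb, an endo- and exopeptidase, at 709 ± 92.3 TPM. Ctsf, whose loss in humans causes a neuronal ceroid lipofuscinosis, stood at 405 ± 110 TPM, Ctsl, a potent endopeptidase, at 351 ± 84.7 TPM, Ctsz, a carboxypeptidase, at 348 ± 106 TPM and Ctsa at 298 ± 82.8 TPM. Cstb stood at 131 ± 55.8 TPM and Ctsh, an aminopeptidase, at 85.2 ± 54.8 TPM. Neighbours in this order were not all separated by the libraries: Ctsl exceeded Ctsz in only 16 of 37 libraries, Ctsf exceeded Ctsl in 28, Cstb exceeded Ctsh in 29, Ctsz exceeded Ctsa in 30 and Ctsd exceeded Ctsb in 31, whereas Ctsb lay above Ctsf in all 37 and Ctsa above Cstb in 36. All genes but Ctsh had more than 3 counts in every library, and Ctsh was at 0 in the ipsilateral sham library a9_9, in which many other genes were also missing. All 9 passed the filter on low counts in both hemispheres.

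**Figure D1:**
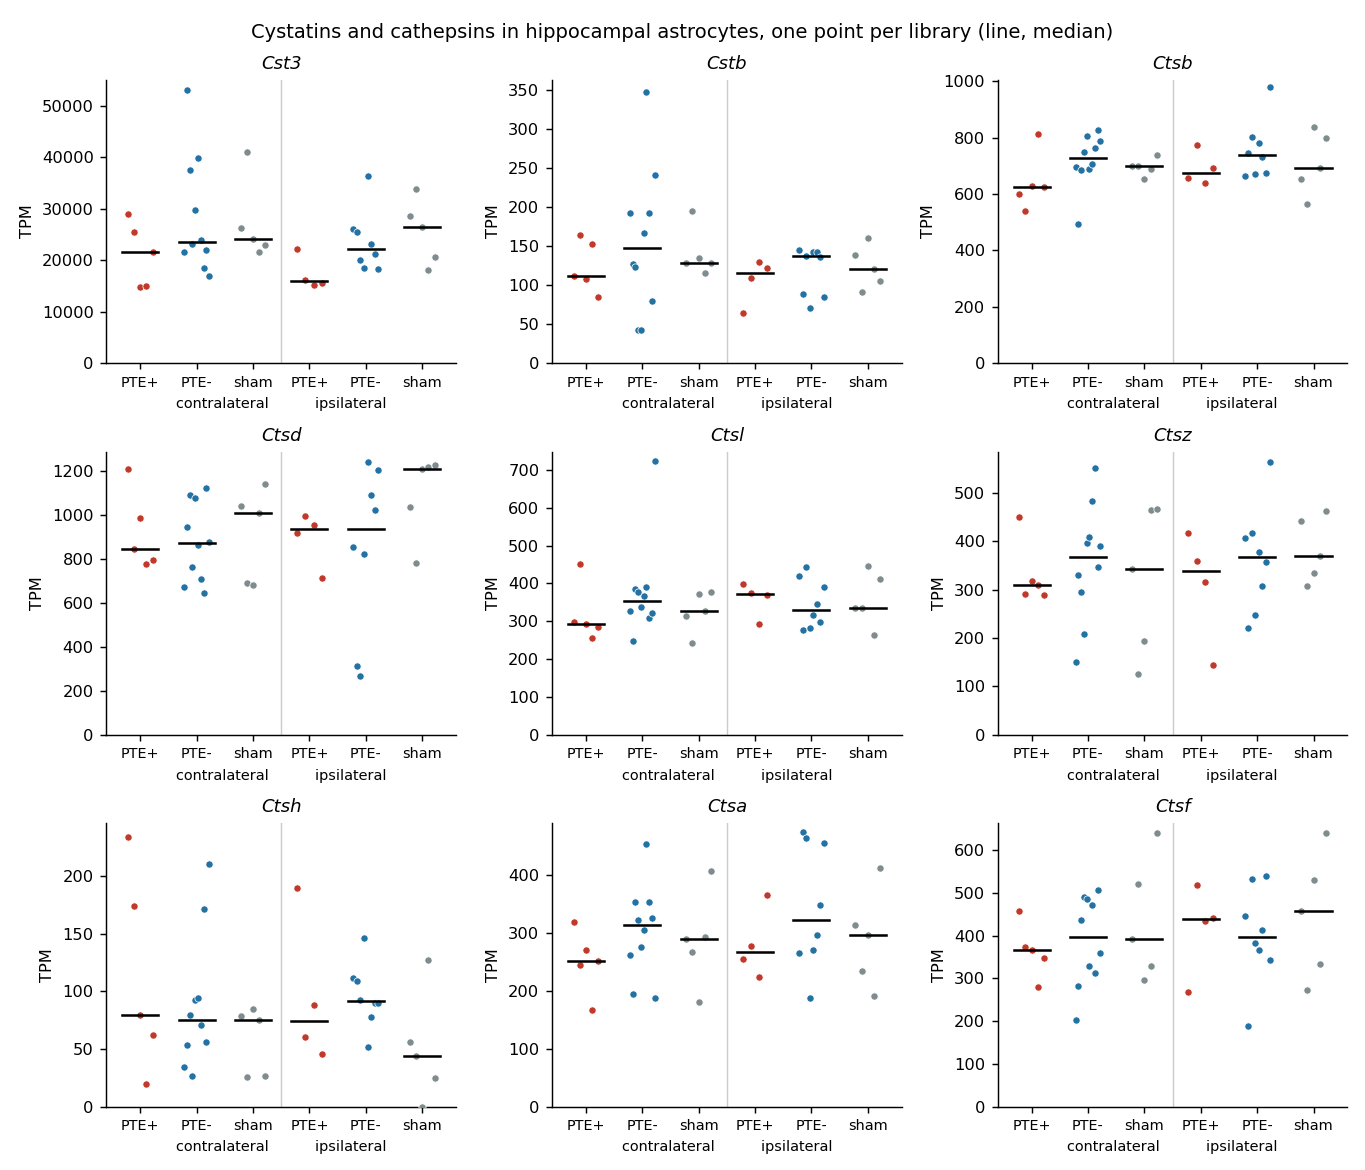
TPM of each gene (vertical axis, own scale per panel) in every library, by group and hemisphere; points are libraries and lines are group medians. Cst3 lies between 14791 and 53181 TPM, Ctsb within a narrow band of 494 to 981 TPM, and Ctsh falls to 0 in 1 sham library.

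The genes are spread over the genome (GRCm38). Cst3 lies on the minus strand of chr2:148871722-148875692, with Ctsa at chr2:164832873-164841032 (+) and Ctsz at chr2:174427493-174439039 (-) further along the same chromosome. Cstb lies at chr10:78425669-78427622 (+), Ctsb at chr14:63122462-63145923 (+), Ctsd at chr7:142375911-142388038 (-), Ctsl at chr13:64359337-64370890 (-), Ctsh at chr9:90054152-90076089 (+) and Ctsf at chr19:4855130-4860918 (+). The merged exons of Cstb span 603 bases and those of Cst3 1266, against 6051 for Ctsb and 6489 for Ctsl, a difference in length that bears on the scales compared below.

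Many lysosomal genes share the E-box CACGTG near their start, the core of the element bound by TFEB, a transcription factor that drives lysosome biogenesis. RefSeq promoter windows (250 bases before to 50 bases after the start, GRCm38.p6) matched 6 of the 9 genes. CACGTG, which reads the same on both strands, was present in 4 of the 6 (Ctsd, Ctsf, Ctsa and Ctsl) and in 7.15% of 32851 mouse promoter windows, and the longer TCACGTGA, which contains it, was present in 2 of the 6 (Ctsd and Ctsa) and in 0.974% of windows. The windows of Cst3 and Ctsz hold neither. A match is a string of letters and not a measured binding site. A stretch of 60 bases is shown for each of the 4 proteases with the E-box in capitals, to let the shared element be seen in its different surroundings. For contrast, the last 60 bases before the RefSeq start of Cst3 are shown. The starts used here are those of the RefSeq windows and differ from the ends of the gene spans given above. By those spans, the stretches of Ctsd, Ctsa, Ctsl and Cst3 lie inside the gene, and that of Ctsf before it. Ctsd is from chr7:142387893-142387952 (-), Ctsf from chr19:4855059-4855118 (+), Ctsa from chr2:164833713-164833772 (+), Ctsl from chr13:64370711-64370770 (-) and Cst3 from chr2:148875513-148875572 (-).
Ctsd: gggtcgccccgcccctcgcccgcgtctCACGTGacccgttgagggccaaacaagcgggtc
Ctsf: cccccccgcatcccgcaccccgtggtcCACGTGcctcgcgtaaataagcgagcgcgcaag
Ctsa: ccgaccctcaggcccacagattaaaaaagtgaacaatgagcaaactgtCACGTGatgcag
Ctsl: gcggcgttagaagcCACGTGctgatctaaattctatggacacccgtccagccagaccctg
Cst3: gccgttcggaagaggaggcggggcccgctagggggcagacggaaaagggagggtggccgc

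The libraries held 25371887 to 55333329 counts contralaterally and 36925501 to 59846479 ipsilaterally. All 15 astrocyte markers were detected in every library, with a summed level of 18911 to 48796 CPM (gene counts scaled to a common library total), against 27.2 to 1620 CPM for 15 microglial markers and 0.136 to 83.4 CPM for 8 markers of perivascular or infiltrating macrophages. Of the other lists, oligodendrocyte lineage markers summed to 879 to 3405 CPM, neuronal markers to 53.3 to 1692 CPM, endothelial and mural markers to 290 to 4154 CPM, and ependymal and choroid plexus markers to 172 to 7587 CPM. In these bulk libraries, fewer cells of a type and less RNA per cell cannot be told apart. Of the genes with a median count above 1000 in a hemisphere, 4 libraries lacked many (at most 3 counts): ipsilateral PTE- a8_11 (33.1%) and a8_14 (13.1%), ipsilateral sham a9_9 (12.9%) and contralateral PTE- a9_20 (12.97%), against at most 6.54% elsewhere. They are called sparse below, and a8_11 was the sparsest, with 9020 detected genes against an ipsilateral median of 14450. No pair of libraries was identical. Mouse names begin with a8 or a9, and the sources used here do not say what the prefix means.

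The spread between mice of a group differed widely among the 9 genes. Ctsb was the steadiest: its within-group SD was 0.13 log2 CPM contralaterally, with 0% of 10772 genes above 5 TPM having a smaller one, and 0.25 ipsilaterally, with 0.23% smaller. The median gene had an SD of 1.31 contralaterally and 1.52 ipsilaterally, and the median gene above 100 TPM 0.53 and 0.61. Ctsl (0.32 contralaterally and 0.31 ipsilaterally), Ctsf (0.35 and 0.38) and Ctsa (0.37 and 0.46) were also steady. Cst3, despite its level, varied like a typical abundant gene, with SDs of 0.64 and 0.50. Ctsh varied most, with 1.05 and 1.48.

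The comparison of PTE+ with PTE- mice asks what distinguishes injured mice that became epileptic. Contralaterally, Cst3 in the 5 PTE+ libraries was 4916, 5396, 7939, 10582 and 11256 CPM, and the 10 PTE- libraries ran from 7136 to 34684 CPM with a median of 9531 CPM. The sham libraries ran from 7356 to 19410 CPM with a median of 10052 CPM. The lowest values belonged to 2 PTE+ mice and the highest to a PTE- mouse, and the groups overlapped. The log2 fold change of Cst3 was -0.68 ± 0.35 (SE; 95% interval -1.40 to 0.03; edgeR quasi-likelihood test, unadjusted p = 0.0605, Benjamini-Hochberg adjusted p = 0.9998), and it ranged from -0.84 to -0.36 when each library was left out in turn, the smallest size without the PTE- mouse a8_11.

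Ctsb showed the clearest contralateral difference. Its PTE+ libraries were at 827.7, 858.7, 888.1, 953.1 and 989.6 CPM. The PTE- libraries ran from 937.0 to 1339 CPM with a median of 1066 CPM, and the sham libraries from 920.2 to 1102 CPM with a median of 922.2 CPM. Every PTE+ library thus lay below 9 of the 10 PTE- libraries, and the overlap was with a single one. The log2 fold change was -0.28 ± 0.11 (95% interval -0.52 to -0.05). The edgeR test gave an unadjusted p of 0.0200 and a Benjamini-Hochberg adjusted p of 0.9998, whereas DESeq2 gave an adjusted p of 0.0188 at -0.27. An exact two-sided permutation test of Ctsb alone gave p = 0.00167 (5 against 10 libraries, smallest possible 0.000333), 1 of 54 such tests of the 9 genes. Among a9 mice the difference was -0.26 log2 (3 against 6, exact permutation p = 0.0357) and among a8 mice -0.30 (2 against 4, exact permutation p = 0.133). On log2(TPM + 1) it was -0.17, with an exact permutation p of 0.172.

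Across the 9 genes, 8 had lower fitted levels in contralateral PTE+ than PTE- libraries, and none passed an adjusted p of 0.05 by edgeR, beside 1 of 14642 genes tested (0.00683%). DESeq2, which tested 17640 genes, called 85, Ctsb among them, and limma voom called 0 of 14642. Only Ctsb had an unadjusted p below 0.05, against 2.21% of all genes. The median log2 fold change of the 9 was -0.28, against -0.05 for all genes, of which 53.3% were lower. Abundant genes as a class leaned the same way: of 1708 genes above 100 TPM, 76.6% were lower, with a median of -0.18. Markers of several cell types differed between the same libraries: 14 of 15 astrocyte markers were lower in PTE+ (median -0.18), whereas 10 of 10 neuronal (median 1.42), 10 of 10 endothelial and mural (0.79) and 5 of 5 tested macrophage markers (1.57) were higher, none after adjustment. Their summed levels overlapped, at 146 to 1692 CPM in PTE+ and 144 to 514 CPM in PTE- for neuronal and 1017 to 4154 and 628 to 2064 CPM for endothelial and mural markers. Their part in the differences was not tested. Of 15 microglial markers 9 were lower, and with their level as a covariate Cst3 gave -0.77 ± 0.32 (edgeR unadjusted p = 0.0249). The remaining cathepsins that cystatins inhibit gave -0.38 ± 0.20 for Ctsl, -0.27 ± 0.30 for Ctsz, -0.21 ± 0.20 for Ctsf and 0.21 ± 0.53 for Ctsh. The values were -0.56 ± 0.53 for Cstb, -0.39 ± 0.21 for Ctsa and -0.09 ± 0.20 for Ctsd. Ctsl had an exact permutation p of 0.0483 (5 against 10 libraries) at a difference of -0.41 log2 CPM. On log2(TPM + 1) the difference was -0.23, with an exact permutation p of 0.299. The CPM difference was -0.61 among a9 mice (3 against 6, exact permutation p = 0.0476) and -0.11 among a8 mice (2 against 4, exact permutation p = 0.667). The sign of Ctsh also split by prefix, with 1.82 among a8 mice (2 against 4, exact permutation p = 0.133) and -1.31 among a9 mice (3 against 6, exact permutation p = 0.107).

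Ipsilaterally, PTE+ libraries had the lowest Cst3 levels. The 4 were at 5005, 5112, 5469 and 8103 CPM, the 8 PTE- libraries ran from 6142 to 15458 CPM with a median of 8189 CPM, and the sham libraries from 6037 to 14639 CPM with a median of 11300 CPM. The 3 lowest of the 17 libraries were PTE+, and the fourth PTE+ library lay inside the range of the other groups. The log2 fold change of PTE+ over PTE- was -0.70 ± 0.29 (95% interval -1.30 to -0.10; edgeR unadjusted p = 0.0252, Benjamini-Hochberg adjusted p = 0.99999), and -0.54 without the sparse PTE- library a8_11. The exact permutation test gave p = 0.0465 (4 against 8 libraries; smallest possible 0.00202) at a difference of -0.64 log2. Within a9 mice the difference was -0.63 (3 against 5, exact permutation p = 0.0714), and a8 mice held 1 PTE+ library. On log2(TPM + 1) it was -0.44, with an exact permutation p of 0.0424 over the same 4 against 8 libraries.

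All 9 genes had lower fitted levels in ipsilateral PTE+ than PTE- libraries on the CPM scale, where 50.7% of the 14903 genes tested did, and 66.7% of 1751 abundant genes. The median over the 9 was -0.32, against -0.01 for all genes and -0.16 for abundant ones. None passed an adjusted p of 0.05 by edgeR (0% of genes did, 261 or 1.75% at an unadjusted p below 0.05). DESeq2 called 113 of 16933 genes and limma voom 0, none of them among the 9. After Cst3 came Ctsa with -0.45 ± 0.29, Cstb with -0.43 ± 0.58, Ctsz with -0.39 ± 0.31 and Ctsb with -0.32 ± 0.18. Ctsf, Ctsl, Ctsh and Ctsd lay between -0.16 and -0.07, with SEs of 0.25, 0.23, 0.95 and 0.32. On log2(TPM + 1) the signs of Ctsd, Ctsl and Ctsf turned. Microglial markers leaned the same way (13 of 15 lower in PTE+, median -1.20; sums of 72.8 to 749 CPM in PTE+ and 166 to 1124 CPM in PTE-), and so did ependymal and choroid plexus markers (8 of 8, median -1.35; 314 to 1093 and 311 to 7587 CPM), none after adjustment. With the microglial level as a covariate, Cst3 gave -0.46 ± 0.29 (edgeR unadjusted p = 0.134), Ctsd turned to 0.05 and no gene of the 9 had an unadjusted p below 0.05. The part of the ependymal markers was not tested.

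**Figure D2:**
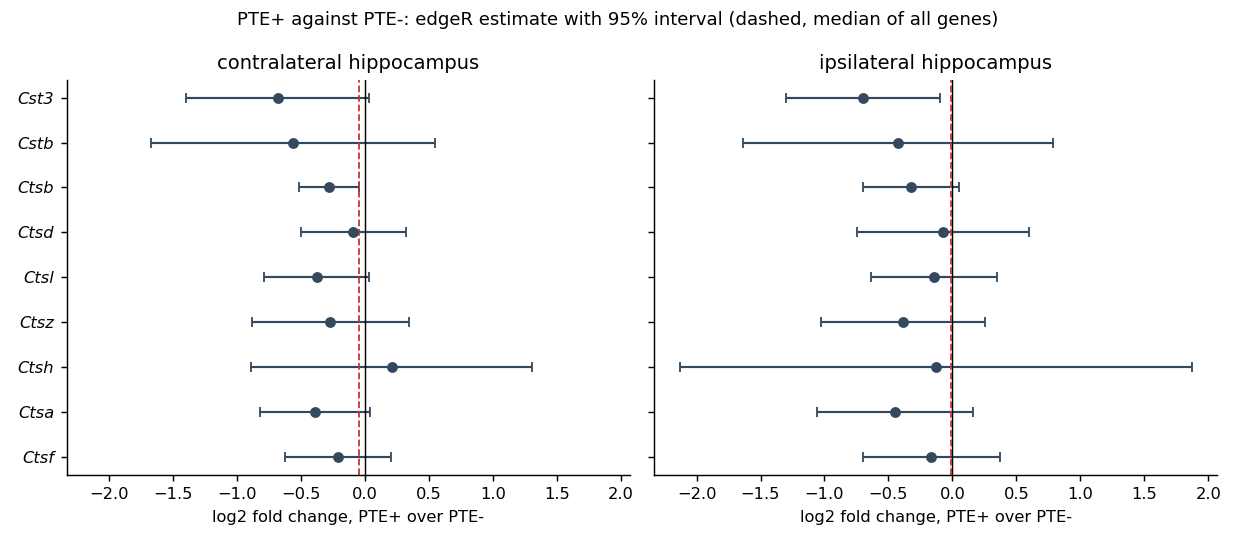
Log2 fold change of PTE+ over PTE- (horizontal axis) for each gene in both hemispheres, from the edgeR fit on counts; bars are 95% intervals and the dashed lines mark the median of all genes tested. Point estimates lie below 0 for 8 genes contralaterally and 9 ipsilaterally, and the intervals of Ctsb contralaterally and Cst3 ipsilaterally end below 0, while that of Cst3 contralaterally reaches 0.03.

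These medians moved with the scale and the fit, whose separate parts were not tested. With limma on log2(TPM + 1) in place of edgeR on counts, the median of all genes shifted from -0.05 to 0.28 contralaterally. Ipsilaterally it shifted from -0.01 to 0.25. The median of the 9 became -0.08 contralaterally and -0.16 ipsilaterally. With 0.1 added to TPM in place of 1, all genes gave 0.47 and 0.40. Limma voom, on counts, gave 0.06 and -0.05 for all genes and -0.34 and -0.16 for the 9. The median of the 9 lay below that of all genes in each of these fits. In the edgeR fit the median of abundant genes did so too, at -0.18 and -0.16, and it was not computed on TPM. Libraries also differed in the share of counts on 3563 short genes (under 1500 exonic bases), with medians of 3.92% in PTE+, 4.40% in PTE- and 4.45% in sham contralaterally and 3.41%, 4.41% and 4.06% ipsilaterally. That share rose with Cst3 over libraries (Spearman rho 0.66 contralaterally, 0.68 ipsilaterally). With the share as a covariate, an alternative added after seeing the data, the log2 fold change of Cst3 between PTE+ and PTE- was -0.51 contralaterally and -0.47 ipsilaterally, and that of Ctsb contralaterally -0.26. In that ipsilateral fit no gene of the 9 had an unadjusted p below 0.05, whereas Cst3 had an edgeR unadjusted p of 0.0252 without the covariate. The part of this share in the group differences was not tested further.

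The comparisons with sham share their sham libraries, and the PTE+ and PTE- groups recur between them, so their values are given side by side. Contralaterally, with edgeR on counts, all 9 genes had higher fitted levels in PTE- than in sham mice (55.3% of all genes and 67.0% of abundant genes did). Their median was 0.24, against 0.07 for all genes. With limma on log2(TPM + 1), 6 of the 9 were higher and 3 lower, with a median of 0.04 against -0.22 for all genes. Limma voom gave 8 higher (median 0.19), and so did edgeR with the short-gene share as a covariate (median 0.12). In the edgeR fit of this comparison Ctsl gave 0.37 ± 0.20, with an exact permutation p of 0.0293 (10 against 5 libraries). On log2(TPM + 1) the difference of Ctsl was 0.18, with an exact permutation p of 0.419. In PTE+ against sham, 6 of the 9 were lower contralaterally (47.5% of all genes), with a median of -0.13. Ipsilaterally, 7 were lower in PTE- than sham (48.5% of all genes), with a median of -0.12 (5 and a median of -0.01 with RLE size factors), and 8 in PTE+ than sham (49.9% of all genes and 74.5% of abundant genes), with a median of -0.35. In none of these 4 comparisons did edgeR call any gene at an adjusted p of 0.05 (0%). At an unadjusted p below 0.05 it counted 226 genes (1.54%) and 180 genes (1.23%) contralaterally, and 236 (1.58%) and 248 (1.66%) ipsilaterally, among them a single gene of the 9, Cst3 in ipsilateral PTE+ against sham. DESeq2 called 86 and 88 of 17640 genes contralaterally and 72 and 94 of 16933 ipsilaterally, and limma voom 0, 0, 2 and 0. In no case was it one of the 9.

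In the ipsilateral PTE+ libraries, Cst3, Ctsd and Ctsb were lower than in sham on counts. Cst3 gave -0.81 ± 0.31 (edgeR unadjusted p = 0.0168, Benjamini-Hochberg adjusted p = 1). Ctsd was at 793.8, 1105, 1153 and 1154 CPM in the PTE+ libraries and at 1199, 1429, 1492, 1673 and 1738 CPM in sham. Ctsb was at 798.9, 913.1, 943.6 and 996.6 CPM in PTE+ and at 1000.4, 1023, 1071, 1340 and 1390 CPM in sham. For both genes every PTE+ library lay below every sham library, by a narrow margin for Ctsb, as was the case for 69 of 14903 genes (0.463%). Exact permutation tests gave p = 0.0159 for Ctsd and p = 0.0317 for Ctsb (4 against 5 libraries; smallest possible 0.00794). On the TPM scale the groups overlapped for both genes. On log2(TPM + 1) the difference was -0.28 for Ctsd (exact permutation p = 0.127) and only -0.03 for Ctsb (exact permutation p = 0.794). For Cst3 it was -0.55 (exact permutation p = 0.0476). Ctsd in the ipsilateral PTE- libraries ran from 345.3 to 1881 CPM, with the lowest values in the 2 sparse libraries a8_14 and a8_11 and the other 6 at 879.2 CPM and above. The ipsilateral astrocyte markers moved the same way on these counts: 14 of 15 were lower in PTE+ than sham, 3 of them at an unadjusted p below 0.05 and none after adjustment.

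Cystatin B did not differ between groups beyond its spread. Its contralateral libraries ran from 16.4 to 37.4 CPM in PTE+, from 7.94 to 70.3 CPM in PTE- and from 20.6 to 55.5 CPM in sham, and ipsilaterally from 12.01 to 24.1, 13.2 to 33.7 and 18.7 to 37.7 CPM. Within each hemisphere the 3 ranges overlapped, and no exact permutation test of Cstb between groups gave a p below 0.2 (4 to 10 libraries a group). Its transcripts are short and its counts were lower than those of the cathepsins, and its intervals were wide: the contralateral interval of PTE+ over PTE- ran from -1.67 to 0.55 log2. Ctsh, at 0 in the ipsilateral sham library a9_9 and at up to 87.2 CPM in the other 4, ran from 44.0 to 114 CPM in ipsilateral PTE- libraries. Its exact permutation p there was 0.0210 (8 against 5 libraries), at a difference of 1.84 on log2(CPM + 1) that includes the library at 0. The edgeR fold change was 0.93 ± 0.91 log2, and 0.61 ± 0.51 without that library, which is 1 of the sparse ones. Over libraries Ctsh gave a Spearman rho of 0.58 contralaterally and 0.75 ipsilaterally with the summed ependymal and choroid plexus markers. With the astrocyte markers its rho was -0.03 and -0.70. All 8 ependymal and choroid plexus markers were higher in ipsilateral PTE- than sham libraries (median 1.73), none after adjustment. Their part in the Ctsh difference was not tested.

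The balance of inhibitor and protease transcripts was described by the TPM of Cst3 divided by the summed TPM of Ctsb, Ctsl, Ctsz, Ctsh and Ctsf. Its contralateral medians were 13.4 in PTE+, 13.2 in PTE- and 14.4 in sham libraries. Ipsilaterally they were 8.87 in PTE+ (range 7.76 to 11.5), 11.6 in PTE- (7.68 to 19.2) and 12.3 in sham (8.81 to 22.3). The ranges overlapped on both sides. The summed protease TPM had medians of 1849, 1928 and 1945 in the ipsilateral groups, so on that side the lower ratio of the PTE+ libraries went with the lower Cst3 level. Contralaterally the summed protease TPM had medians of 1685 in PTE+, 1974 in PTE- and 1826 in sham libraries.

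To ask whether the other 8 genes follow Cst3, a slope on the log2 CPM of Cst3 was fitted to every gene within each hemisphere, with group as a term. On counts, all 8 slopes were positive contralaterally, with a median of 0.19, and ipsilaterally 7 of 8, with a median of 0.23, where 46.5% and 37.7% of all genes had positive slopes. On log2(TPM + 1) the directions split, with 4 of 8 positive contralaterally (median -0.06) and 2 of 8 ipsilaterally (median -0.07), and with the short-gene share as a covariate 4 of 8 were positive contralaterally. Abundant genes again behaved like the 8: 77.9% were positive contralaterally (median 0.22) and 75.3% ipsilaterally (median 0.31). No gene of the 8 passed an adjusted p of 0.05 by edgeR, beside 0.314% of genes contralaterally (46 genes, and 0 without the PTE- mouse a8_11) and 0.0134% ipsilaterally (2 genes). At an unadjusted p below 0.05 the shares were 6.68% (978 genes, among them Ctsd) and 4.91% (731 genes, none of the 8). Limma voom called 946 of 14641 genes contralaterally, Ctsd among them, and 239 of 14902 ipsilaterally. Ctsd had the steepest contralateral slope, 0.33 ± 0.11 log2 per log2 of Cst3 (edgeR unadjusted p = 0.00563, Benjamini-Hochberg adjusted p = 0.294; 0.20 without a8_11), but an ipsilateral slope of 0.05 ± 0.28. Ipsilaterally the largest slopes were those of Cstb (0.48 ± 0.51), Ctsa (0.36 ± 0.24) and Ctsl (0.36 ± 0.19).

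Ctsb gave the highest Pearson correlation with Cst3 over libraries in both hemispheres on the CPM scale, while by Spearman rho Ctsf (0.48) came first contralaterally and Ctsl (0.66) ipsilaterally. The correlation of Ctsb turned with the change of unit. Contralaterally its Pearson r was 0.63 (permutation p = 0.00329, adjusted over 24 relations 0.0264) and its Spearman rho 0.47 (permutation p = 0.0367, adjusted 0.0979) over 20 libraries, with r = 0.41 without the 2 libraries farthest from the Cst3 median. Ipsilaterally r was 0.66 (permutation p = 0.0044, adjusted 0.0264) and rho 0.64 (permutation p = 0.00704, adjusted 0.0535) over 17 libraries, with r = 0.53 without the 2. On log2(TPM + 1) the same correlations were -0.46 and -0.17. The contralateral r of Ctsd was 0.56 (permutation p = 0.0122, adjusted 0.0419; rho 0.42, permutation p = 0.0678, adjusted 0.127; 0.41 without the 2), with 0.60 among a8 and 0.19 among a9 mice. The ipsilateral r of Ctsl was 0.62 (permutation p = 0.00906, adjusted 0.0419; rho 0.66, permutation p = 0.00532, adjusted 0.0535; 0.75 without the 2), but -0.36 among the 6 a8 and 0.54 among the 11 a9 libraries. The remaining 12 correlations over libraries ran from -0.12 to 0.57, none with an adjusted p below 0.05. Cstb, the other inhibitor, gave 0.26 contralaterally and 0.57 ipsilaterally.

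**Figure D3:**
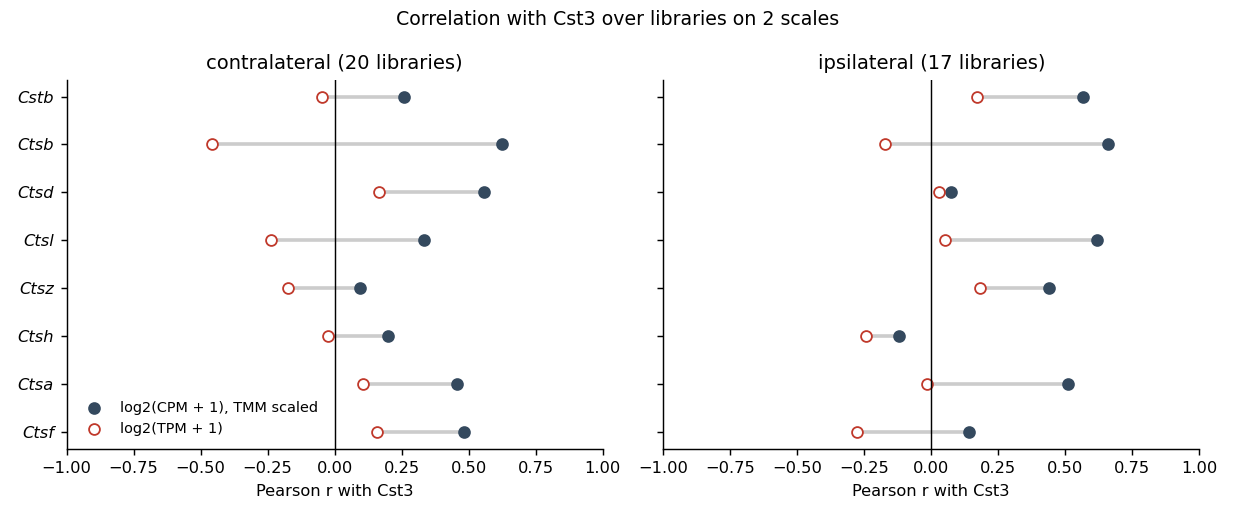
Pearson r with Cst3 over libraries (horizontal axis) of each gene (vertical axis), for the 20 contralateral and 17 ipsilateral libraries. Filled points were computed on log2 CPM and open points on log2(TPM + 1). On the CPM scale 15 of 16 values lie above 0, whereas on the TPM scale all lie between -0.46 and 0.18, and Ctsb moves the furthest on the contralateral side.

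Abundant genes in general had correlations with Cst3 of the same size. Within groups, the median Spearman rho of the 8 genes with Cst3 was 0.34 contralaterally and 0.29 ipsilaterally, against 0.32 and 0.26 for all genes above 100 TPM. The 5 genes whose pattern was most like that of Cst3, by the smaller of the rho in the 2 hemispheres after centring on group means, were Gstm5 (0.84), S100a13 (0.84), Prdx1 (0.83), Ndufs5 (0.83) and Hist1h2bc (0.82) among 10378 genes. By the same measure Ctsb ranked 443rd, Ctsa 725th, Ctsl 906th and Cstb 1591st, and Ctsz, Ctsh, Ctsf and Ctsd ranked 2392nd, 2583rd, 3134th and 3478th. With the exception of Prdx1 (3043 exonic bases), the 5 leading genes are short, as is Cst3 with 1266 exonic bases. Gstm5 has 1278, Hist1h2bc 1156, Ndufs5 860 and S100a13 715.

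Cst3 levels were shared between the hemispheres of a mouse. In a8_11 it was at 34684 CPM contralaterally and 15038 CPM ipsilaterally, and in a9_13 at 16789 and 15458 CPM, the 2 highest PTE- mice on both sides. In a9_17 it was at 4916 and 5005 CPM and in a9_18 at 5396 and 5112 CPM, low on both sides. Over the 17 mice the 2 hemispheres correlated with r = 0.83 (permutation p = 2e-05, adjusted over 9 genes 0.00018) and rho = 0.84 (permutation p = 7e-05, adjusted 0.00063). The r was 0.80 without the 2 mice farthest from the median, 0.81 after centring on group means, 0.73 among the 6 a8 and 0.84 among the 11 a9 mice, and 0.71 on log2(TPM + 1). Of 10883 genes above 5 TPM, 99.8% had a smaller correlation between the hemispheres of a mouse, and so had 99.6% of the 1735 genes above 100 TPM, whose median was 0.22.

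The other 8 genes had lower correlations. Ctsa came nearest with r = 0.47 (permutation p = 0.06, adjusted 0.27; rho 0.56), followed by Cstb with 0.39, Ctsb with 0.32 and Ctsl with 0.30. Ctsh, Ctsz, Ctsf and Ctsd lay between -0.18 and 0.05. For Ctsd r was -0.18, and 0.24 without the 2 mice farthest from the median, a8_11 and a9_14. In a8_11 Ctsd was at 2155 CPM contralaterally, the highest of all libraries, and at 528.8 CPM in the sparse ipsilateral library.

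**Figure D4:**
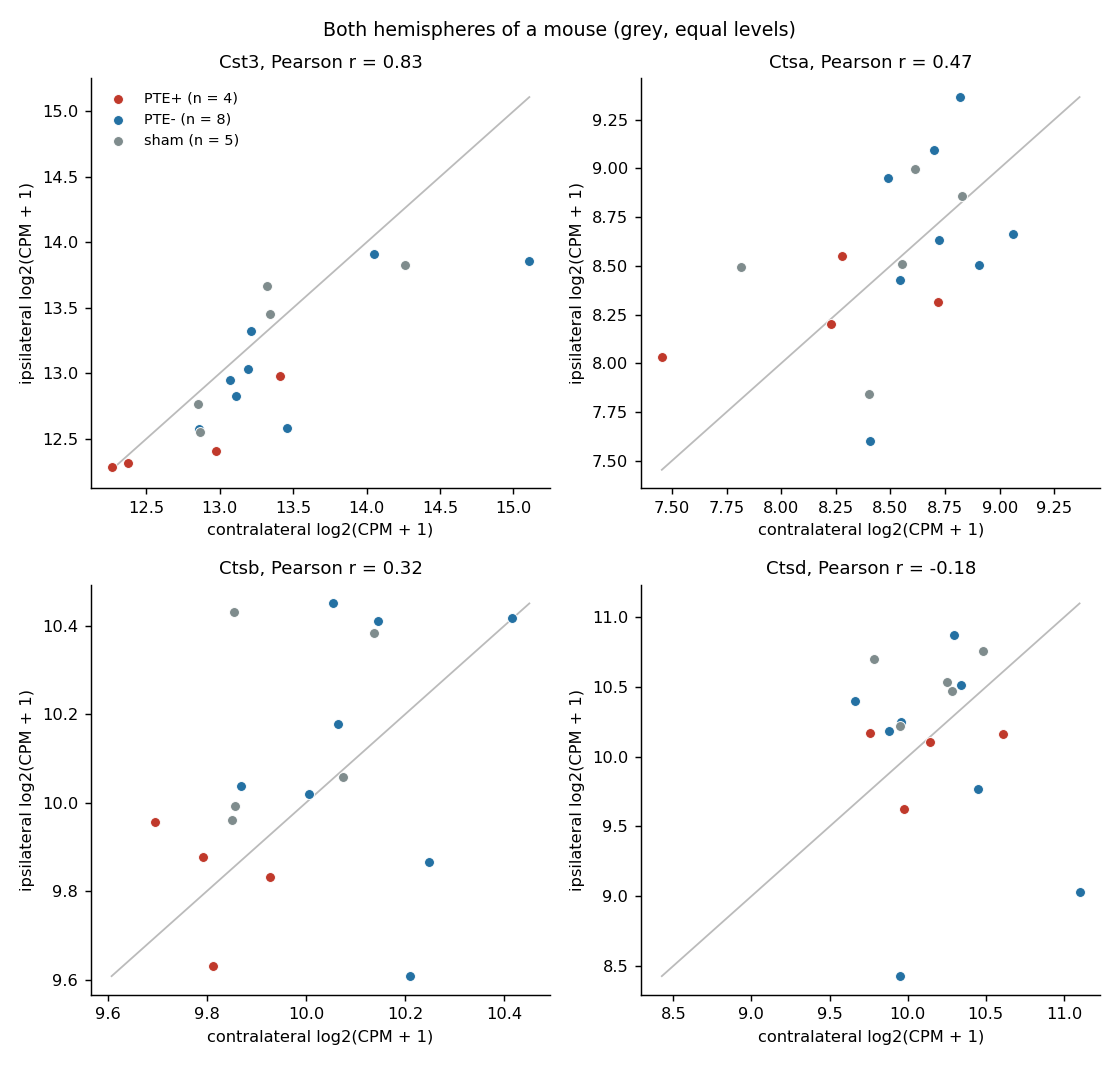
Contralateral (horizontal axis) against ipsilateral (vertical axis) log2 CPM of Cst3, Ctsa, Ctsb and Ctsd in 17 mice, coloured by group; each point is a mouse and the line marks equal levels. Cst3 follows the line (r = 0.83), whereas Ctsd does not (r = -0.18).

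The difference between the hemispheres of a mouse was a separate axis, along which some cathepsins did follow Cst3. The ipsilateral minus contralateral difference in log2 CPM ranged from -1.25 (a8_11) to 0.34 (a8_15) for Cst3. For Ctsf it was -0.87 in a8_11, -0.70 in a9_12 and -0.63 in a8_10, 3 of the 4 mice with the largest fall of Cst3, and 1.13 in a8_9, 0.83 in a9_18, 0.72 in a9_9 and 0.58 in a8_15, all mice with little change or a rise of Cst3. The correlation of the Ctsf and Cst3 differences was r = 0.82 (permutation p = 1e-05, the smallest these permutations can give, adjusted over 24 relations 0.00024) and rho = 0.87 (permutation p = 1e-05, adjusted 0.00024). It was 0.75 without the 2 mice farthest from the median, 0.80 to 0.85 when each mouse was left out, 0.83 after centring on group means, 0.85 among a8 and 0.78 among a9 mice, and 0.70 on log2(TPM + 1) with an adjusted permutation p of 0.0264. It exceeded that of 99.8% of 10882 genes and of 99.0% of 1734 abundant genes.

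Ctsd and Ctsz followed less firmly, and they stood out less from abundant genes. The r of Ctsd exceeded that of 97.1% of 10882 genes and of 90.7% of 1734 abundant genes. The upper quartile of the abundant genes was 0.56, close to the r of Ctsz. For Ctsd r was 0.70 (permutation p = 0.00405, adjusted 0.0264; rho 0.62, permutation p = 0.0094, adjusted 0.0535), 0.72 among a8 and 0.82 among a9 mice and 0.69 on log2(TPM + 1), but it fell to 0.45 without a8_11 (adjusted permutation p = 0.145) and to 0.32 without the 2 farthest mice, a8_11 and a9_12, on which the relation rests. For Ctsz r was 0.59 (permutation p = 0.0107, adjusted 0.0419; rho 0.60, permutation p = 0.0132, adjusted 0.0535), 0.73 among a8 and 0.69 among a9 mice, 0.43 without the 2 farthest mice and 0.42 on log2(TPM + 1) (adjusted permutation p = 0.183). Its adjusted permutation p rose above 0.05 when any one of 6 mice was left out, to 0.0824 without a9_12, 0.0774 without a8_11, 0.0659 without a8_9, 0.0625 without a9_9, 0.0584 without a9_19 and 0.0556 without a8_15. Ctsb gave 0.54 (permutation p = 0.0292, adjusted 0.0774) and turned to -0.31 on log2(TPM + 1). Ctsl gave 0.47, Ctsa 0.19 and Ctsh -0.22. Cystatin B had no such relation, with r = 0.01 and rho = 0.02, and reached from -1.52 to 1.73 log2 between hemispheres.

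The summed astrocyte markers, a list that holds none of the 9 genes, moved along this axis too. Their side-to-side difference correlated with that of Cst3 at r = 0.85, of Ctsd at 0.85 and of Ctsf at 0.76, and with that of Cstb at -0.29 and Ctsh at -0.45. The summed microglial markers gave 0.19 for Cst3, 0.36 for Ctsd and -0.08 for Ctsf, and 0.54 for Ctsb. These are descriptions over 17 mice whose points share both libraries. The part of astrocyte content in the relation of Ctsf to Cst3 was not tested.

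**Figure D5:**
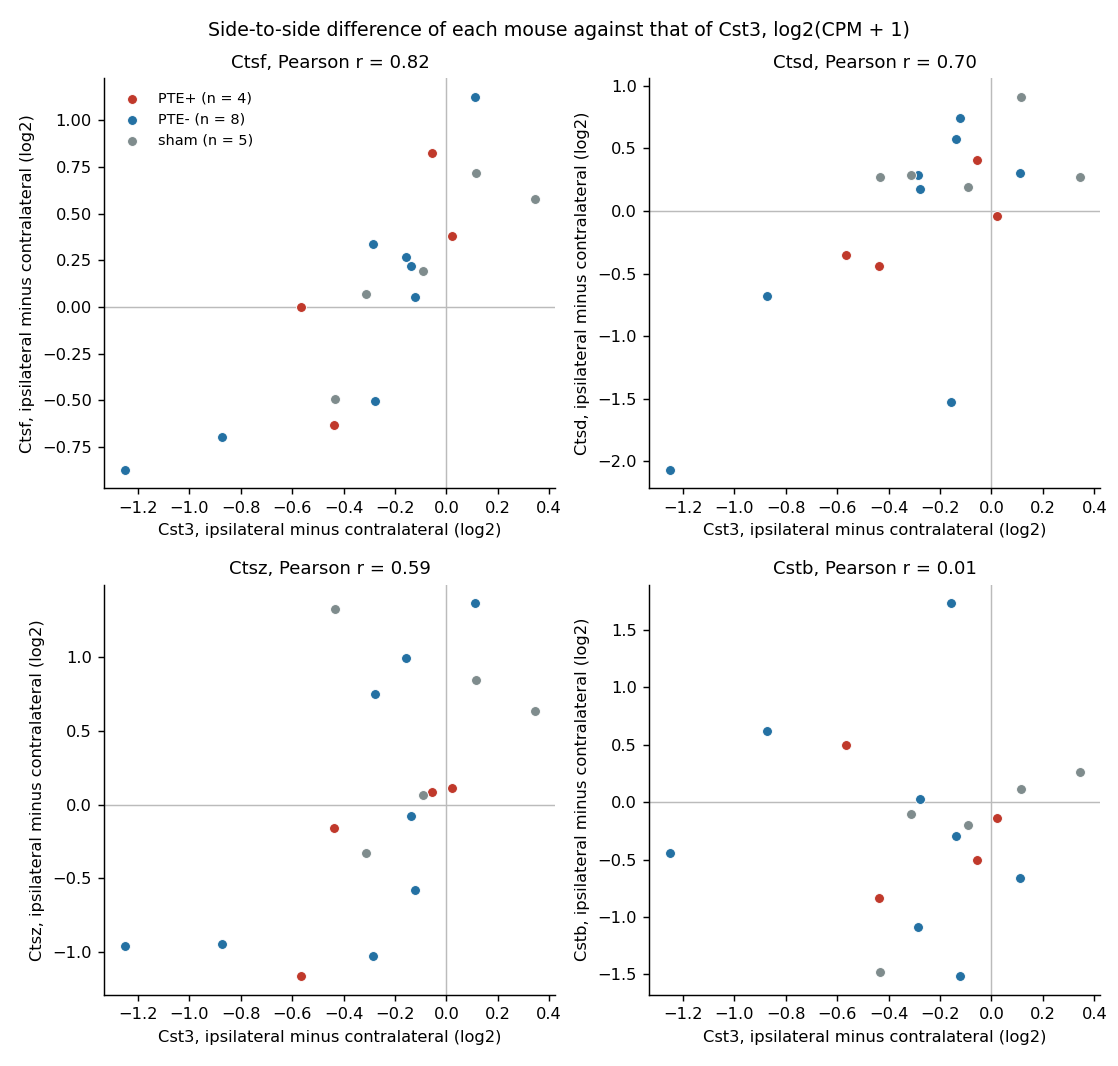
Ipsilateral minus contralateral difference in log2 CPM of Cst3 (horizontal axis) against that of Ctsf, Ctsd, Ctsz and Cstb (vertical axes) in 17 mice, coloured by group. Ctsf rises with Cst3 across all groups (r = 0.82), Ctsd does so with a8_11 at the lower end (r = 0.70), and Cstb is scattered without trend (r = 0.01).

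In the mean, the hemispheres differed little. Cst3 was lower ipsilaterally in 7 of 8 PTE- mice, by -0.37 ± 0.45 log2 (mean ± SD, exact sign-change permutation p = 0.0156, smallest possible 0.00781). The same held in 3 of 4 PTE+ mice (-0.26 ± 0.29, for which an exact test cannot fall below 0.125) and in 3 of 5 sham mice (-0.08 ± 0.31). Such a test was run for each of the 9 genes in each group of mice. In the main edgeR fit of PTE- mice, 64.3% of abundant genes were lower ipsilaterally (median -0.11), as were 13 of 15 astrocyte markers. With the mouse as a replicate block, edgeR gave Cst3 an unadjusted p of 0.00805 in PTE- mice and an adjusted p of 1. Ctsd was higher ipsilaterally in 5 of 5 sham mice, by 0.39 ± 0.29 log2 (exact permutation p = 0.0625, the smallest possible), in 1 of 4 PTE+ and in 5 of 8 PTE- mice. Ctsl was higher ipsilaterally in 4 of 4 PTE+ mice (0.24 ± 0.17) and in 3 of 8 PTE- mice (-0.13 ± 0.31), and the difference between those 2 groups had an exact permutation p of 0.0566 (4 against 8 mice). By edgeR, 0% of 15731 genes passed an adjusted p of 0.05 for the hemispheres of PTE+, PTE- or sham mice (461, 717 and 323 genes at an unadjusted p below 0.05) or for the differences between them (462 and 492 genes), with or without the mouse as a block. None of the 9 genes had an unadjusted p below 0.05 without it.

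Few other members of the families were expressed. Of 20 further cystatins and relatives, 18 were in the tables and only Cst6 passed the filter, at 4.34 TPM. Among 8 further cathepsins and legumain, Ctso reached 173 TPM, Ctss 89.9 and Lgmn 82.8 TPM. Ctsc stood at 19.8, Ctsk at 7.00 and Ctsw at 2.64 TPM, Ctse passed the filter only ipsilaterally at 0.785 TPM, and Ctsg was at 0. Of these only Ctso, a cysteine cathepsin, had an unadjusted p below 0.05 between PTE+ and PTE-, contralaterally (-0.43 ± 0.19 log2; edgeR unadjusted p = 0.0356, Benjamini-Hochberg adjusted p = 0.9998). Ctss, a cathepsin of microglia and macrophages, followed the summed microglial markers over libraries (Spearman rho 0.87 contralaterally and 0.94 ipsilaterally), whereas the 9 genes gave rho between -0.39 and 0.58 with them.

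Of 36 lysosomal genes, 29 had lower fitted levels in contralateral PTE+ than PTE- libraries (median -0.15), where 76.6% of abundant genes were lower, with an unadjusted p below 0.05 for Asah1 (acid ceramidase) and Lamp2 (a lysosomal membrane protein). Ipsilaterally 13 were lower and 23 higher (median 0.10), where 66.7% of abundant genes were lower, none of the 36 at an unadjusted p below 0.05. The difference between the hemispheres was not tested for the list. None passed an adjusted p of 0.05 by edgeR in either hemisphere. Along Cst3 in the contralateral libraries, 7 lysosomal genes had positive and 1 a negative slope at an unadjusted p below 0.05, the smallest p being that of Lamp1 (0.31 ± 0.08 log2 per log2; edgeR Benjamini-Hochberg adjusted p = 0.0917), where 6.68% of all genes had such a p and 77.9% of abundant genes a positive slope. Of 9 genes of lysosomal sorting and transcription, Tfeb among them, 5 were lower contralaterally and 3 ipsilaterally in PTE+ than PTE-, none with an unadjusted p below 0.05. Over all lists the only adjusted p below 0.05 in any comparison was that of Aldoc, an astrocyte glycolytic enzyme, along Cst3 contralaterally (0.58 ± 0.11; edgeR Benjamini-Hochberg adjusted p = 0.0256). That call was lost without the PTE- mouse a8_11 and with the name prefix or the short-gene share as a covariate, when 0 genes passed.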

How the data were processed

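RNA-seq was performed on ACSA-2 isolated hippocampal astrocytes, 1 library per mouse and hemisphere (37 libraries), made with a low-input full-length cDNA kit. The authors deposited estimated counts from RSEM as whole numbers and TPM values, both per gene and not pooled; the submitters' processing notes name Trim Galore 0.6.4, Bowtie2 2.4.1, RSEM 1.2.28, DESeq2 1.36.0 and mm10, and the annotation release is not given in the sources used here. TPM sums to the same total in each library, so a level depends on all others, and neither table keeps strand or molecule identifiers. Symbols were assigned to 21856 of 21975 gene identifiers.

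Counts were tested with edgeR 4.0.16 (TMM, filterByExpr, quasi-likelihood F test) over all genes of a hemisphere (14642 contralateral and 14903 ipsilateral genes) with Benjamini-Hochberg adjustment, and single genes with two-sided exact permutation tests on log2(CPM + 1); correlations used 100000 permutations. Hemispheres of a mouse were paired by its name in the labels for the exact tests, the correlations and the edgeR fit with the mouse as a block. The main edgeR fit of the hemispheres had no such block and took the 2 libraries of a mouse as independent. The correlation of the deviations of a mouse's 2 libraries had a median of 0.08 over 17 mice (range -0.04 to 0.36, above 0.1 in 7). P-values measure the spread between mice, and those of the main hemisphere fit ignore the pairing. Intervals are 95%, from the t distribution with the degrees of freedom of the fit. Alternatives were DESeq2 1.42.0, limma 3.58.1 (voom, and log2 of TPM plus 1 or 0.1), other scaling and filters, covariates, and leaving out each library. The genes named are the 9, list genes with an adjusted p below 0.05, other cystatins and cathepsins past the filter, and the 5 genes most like Cst3; Asah1, Lamp2 and Lamp1 were named after their values were seen. The 9 genes and all lists were chosen with earlier results of these data known. Scripts were tested on simulated data.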

Additional observations from a re-analysis of the deposited data

Results flagged for a closer look

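In 3 of 54 groups (9 genes in 6 groups, TPM), the most extreme library lay further from its neighbours than Dixon's 95% limit allows, about the rate of 1 in 20 that chance gives. Ctsd was at 715.8 TPM in the ipsilateral PTE+ mouse a9_19, against 919 to 995 TPM in the other 3. Ctsl was at 452.5 TPM in the contralateral PTE+ mouse a8_17, above all others of its group. Ctsf was at 202.56 TPM in the contralateral PTE- mouse a8_9, the lowest of 10, which also had the largest rise of Ctsf between hemispheres.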

How the results depend on the processing

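Of 883 alternative values of 37 single results, 856 kept their sign, and 25 of the results did so throughout. Calls among the genes appeared under 2 tools. DESeq2 called Ctsb between contralateral PTE+ and PTE-, 1 of 85 calls in 17640 genes. Voom called Ctsd along Cst3 contralaterally, 1 of 946 calls in 14641 genes. Medians over the genes moved on log2(TPM + 1) to -0.078 in ipsilateral PTE+ against sham (-0.078 with 0.1 added) and along Cst3 to -0.057 contralaterally and -0.069 ipsilaterally, and with the short-gene share as a covariate to -0.0093 contralaterally. Of 54 exact permutation tests of single genes between groups, 7 had p below 0.05, and 3 on log2(TPM + 1). The share of such p-values was not computed for other genes.

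Signs turned as follows. Between contralateral PTE+ and PTE-, Cstb was 0.089 and Ctsh -0.13 by voom, and Ctsd 0.079 on TPM with either pseudocount. Ipsilaterally, TPM with either pseudocount gave Ctsd 0.25, Ctsl 0.058 (0.059 with 0.1 added) and Ctsf 0.072, the microglial covariate gave Ctsd 0.050, and the short-gene covariate gave Ctsh 0.086. That covariate turned Cst3 in contralateral PTE- against sham to -0.025. On TPM, Ctsb along Cst3 was -0.27 contralaterally and -0.19 ipsilaterally, and its side-to-side r was -0.31. The cause was not tested.

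Leaving out each library gave -0.21 to 0.048 for Ctsd and -0.14 to 0.49 for Ctsh in contralateral PTE+ against PTE-, -0.21 to 0.11 and -0.74 to 0.11 ipsilaterally, and, for Cst3 in PTE- against sham, -0.075 to 0.55 contralaterally and -0.26 to 0.042 ipsilaterally. The side-to-side r of Ctsb ranged from 0.39 to 0.67, passing an adjusted p of 0.05 without a8_11.

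With the mouse as a replicate block, edgeR called 0 genes in the hemisphere comparisons, and the median of the 9 was 0.02 in PTE+, -0.07 in PTE- and 0.21 in sham mice, and 0.11 and -0.23 for the differences between groups; the pairing changed no call. Groups of 4 to 10 mice and within-group SDs of 0.5 to 0.6 log2 for Cst3 limit what differences could be detected.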
